A study of Mus musculus with 12 samples.

Results

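The cytosolic ribosomal protein genes encode the proteins of the large and the small subunit of the ribosome that translates nuclear mRNA. They were taken from each expression table as all genes whose symbol has the form Rpl or Rps followed by a number, with an optional letter and digit, together with Rplp0, Rplp1, Rplp2 and Rpsa. Rps6k kinases and genes that RefSeq types as pseudogenes were left out. The rule used names and no measured value. It found 84 genes among the 16232 of the in vivo table, 52 of the large and 32 of the small subunit, and 83 among the 24421 of the in vitro table, 51 of the large and 32 of the small subunit. The 83 were found by the rule in both tables. Rpl32l was found in the in vivo table by its current symbol; the in vitro table lists this gene under the older name Gm6251, which the rule does not take in, at 0.101 to 0.473 FPKM. RefSeq types it as protein-coding and GENCODE as a processed pseudogene, and at its level of at most 0.28 FPKM in vivo it entered no test.

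Ribosomes hold most of these proteins in equal number, and growing and resting cells alike transcribe their genes at a high rate. Their mRNAs begin with a C and a run of pyrimidines, the 5′ terminal oligopyrimidine (TOP) tract, through which mTOR signalling and the RNA-binding protein LARP1 control their translation and stability. T cells that leave quiescence are known to enlarge their ribosome pool, and Myc is a known activator of ribosome production. Mouse ribosomal protein genes also have many processed pseudogenes, intron-less copies whose sequence can be close to that of the parent mRNA.

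Polyadenylated RNA from regulatory T cells (Treg), the Foxp3-expressing CD4 T cells that restrain immune responses, was sequenced in 12 libraries in 6 groups of 2. The groups were Kdm2b conditional knockout (cKO) and wild-type (WT) Treg in vivo, cKO and WT Treg stimulated in vitro, and cKO and WT Treg left unstimulated in vitro. Cells came from spleen and lymph nodes of mice, and Kdm2b encodes a histone demethylase that belongs to PRC1.1, a non-canonical Polycomb complex. The promoter that drives Cre, the age of the mice and the stimulus are not given in the sources used here. Nothing states that the libraries of a group came from separate animals or cultures, so p-values measure the spread between these libraries, which may be technical. Values are FPKM, a level per unit of gene length and of library size, and the read depth behind them is unknown. The 2 tables were normalised separately and tested separately.

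Some facts of the libraries touch the results. Kdm2b itself stood at 146 and 125 FPKM in cKO and 113 and 110 FPKM in WT Treg in vivo, at 66.3 and 70.5 FPKM in cKO and 74.5 and 71.7 FPKM in WT stimulated Treg, and at 89.8 and 97.4 FPKM in cKO and 84.9 and 94.9 FPKM in WT unstimulated Treg. The deleted part of the gene is not given, so these gene-level values do not check the genotype labels. Haemoglobin genes held 10.3% and 11.6% of all FPKM in the cKO replicate 1 libraries, stimulated and unstimulated, and at most 1.86% in any of the other 6. The 10 B cell markers were all called higher in cKO in the mean genotype effect in vitro, where 116 of 10710 genes were called (1.08%). By condition 3 of the 10 were called in unstimulated and 1 in stimulated Treg, where 8 and 2 of all genes were called. Their summed levels in vitro were 1163 to 1482 FPKM in cKO and 299 to 546 FPKM in WT libraries. In vivo they summed to 243 and 335 FPKM in cKO and 540 and 631 FPKM in WT Treg. There 2 of 9 tested were called lower in cKO, where 39 of 10415 genes were called (0.374%). Of 9 tested erythroid markers 3 were called higher in cKO in the mean genotype effect in vitro, 1 in unstimulated and 0 in stimulated Treg. Their list summed to 5443 to 51384 FPKM in cKO and 29.6 to 2042 FPKM in WT libraries. The part of these cells in the ribosomal protein results was not tested. The 8 T cell and Treg markers summed to 1112 to 1514 FPKM in cKO and 1278 to 1978 FPKM in WT libraries in vitro. Among them Foxp3, the transcription factor that defines Treg, had 238 and 268 FPKM in cKO and 529 and 696 FPKM in WT stimulated Treg, and 71.5 and 82.6 FPKM in cKO and 194 and 189 FPKM in WT unstimulated Treg. It fell in the mean genotype effect in vitro (log2 fold change -1.29, SE 0.12, adjusted p 0.00722) and was the 1 gene of the 8 called there. The Foxp3 difference moves with the genotype, and its part in the results was not tested either. In the WT replicate 2 libraries 13273 genes (stimulated) and 12379 genes (unstimulated) were listed at 0, and in the remaining in vitro ones 9102 to 9857.

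The ribosomal protein genes held a large part of all FPKM in every library. Their share was 26.3% and 24.9% in cKO and 24.7% and 25.2% in WT Treg in vivo. Among stimulated Treg it was 18.6% and 23.6% in cKO and 19.5% and 20.05% in WT. Among unstimulated Treg it was 19.2% and 23.9% in cKO and 23.9% and 21.7% in WT. The genotypes overlapped in each of the 3 settings, and both stimulated WT libraries lay below both unstimulated WT libraries. The 2 lowest in vitro shares were those of the cKO replicate 1 libraries, and with haemoglobin genes taken out of the sum these became 20.8% (stimulated) and 21.7% (unstimulated). On that scale the stimulated shares were 20.8% and 24.03% in cKO and 19.5% and 20.2% in WT Treg and no longer overlapped, while the genotypes still overlapped in unstimulated Treg and in vivo. A smaller share of ribosomal protein mRNA per cell and a smaller share of cells rich in it cannot be told apart in bulk RNA. The large subunit genes together held 1.28 to 1.39 times the FPKM of the small subunit genes in the 12 libraries.

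**Figure D1:**
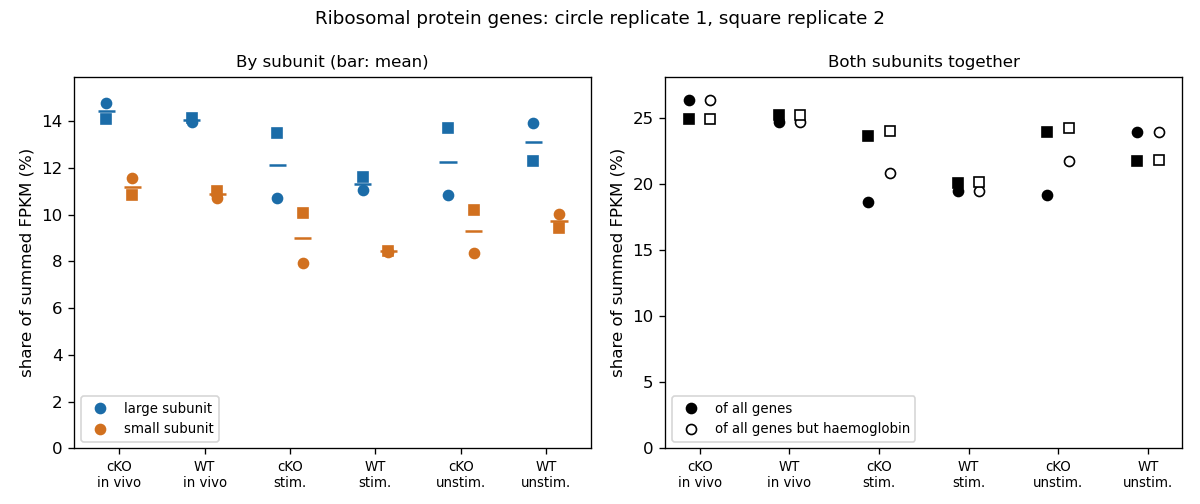
Share of all FPKM (y axis, %) held by the ribosomal protein genes in each of the 12 libraries, with groups on the x axis; the left panel shows the subunits apart with a bar at the group mean, and the right panel both together with and without haemoglobin genes in the sum. In vivo the symbols only follow the order of the table; those libraries lie between 24.7% and 26.3%, and the in vitro libraries between 18.6% and 23.9%.

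Among genes, FPKM are comparable per length. The median gene stood at 1480 FPKM in vivo and 1044 FPKM in vitro among the 80 ribosomal protein genes that averaged 1 FPKM or more, and 78 of these 80 averaged at least 100 FPKM in each table. In vivo the 5 highest were Rpl12 (mean 3077 FPKM), Rplp1 (3063), Rps27 (2893), Rps16 (2834) and Rpl13a (2696). In vitro they were Rplp1 (2858), Rpl12 (2200), Rpl13 (2105), Rpl13a (1989) and Rps14 (1983). Rplp1 is an acidic protein of the stalk that recruits elongation factors, and Rpl12 lies at the stalk's base. The order of the 80 genes in vivo and in vitro had a Spearman correlation of 0.784, given as a description, since the genes share the libraries of each table.

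Rps20 of the small subunit stood furthest from that order. It had 277 and 261 FPKM in cKO and 244 and 257 FPKM in WT Treg in vivo, where its mean ranked 75th. In vitro it had 1271 and 1531 FPKM in cKO and 1347 and 1244 FPKM in WT stimulated Treg, and 1674 and 1965 FPKM in cKO and 2111 and 1627 FPKM in WT unstimulated Treg. There it ranked 14th, and its mean was 6.15 times that in the separately normalised in vivo table. Rps28 and Rps29, small proteins of the small subunit, lay on the other side, with in vitro means of 449 and 375 FPKM against 1394 and 1172 FPKM in vivo. Rps20 was picked for description because of these values.

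**Figure D2:**
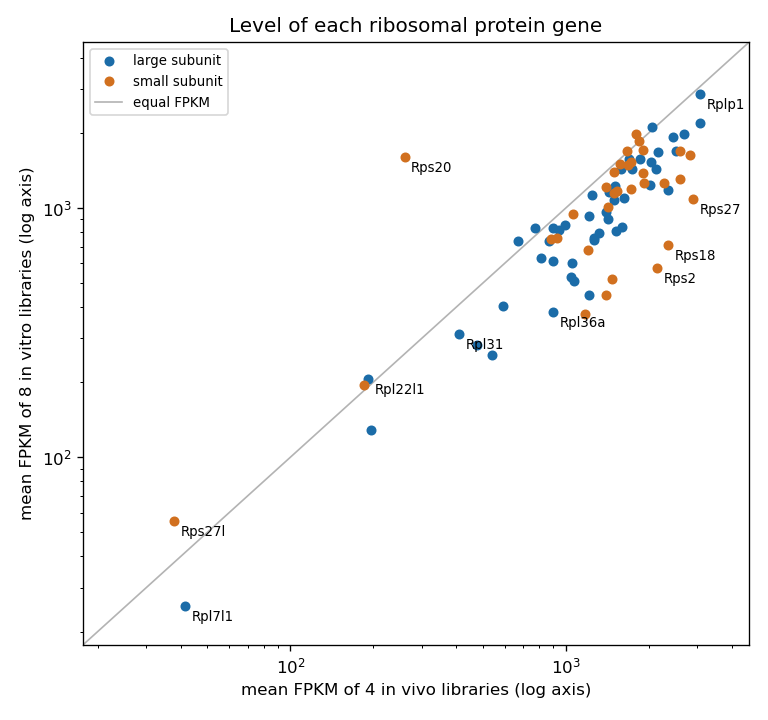
Mean FPKM of each ribosomal protein gene with at least 10 FPKM in both tables, in vivo on the x axis and in vitro on the y axis (both log axes), with a line at equal values. Rps20 lies far above the line at 260 FPKM in vivo and 1596 FPKM in vitro, and Rps2 and Rps18 lie below it.

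Most of the lowest genes duplicate another ribosomal protein. Rps27l, a paralogue of Rps27 known as a p53-responsive gene, averaged 37.9 FPKM in vivo and 55.6 FPKM in vitro, and Rpl7l1, a nucleolar paralogue of Rpl7, averaged 41.5 and 25.3 FPKM. Rpl22l1 and Rpl22 were closer. Rpl22, which is needed for αβ T cell development in mice, averaged 196 FPKM in vivo and 129 FPKM in vitro, and Rpl22l1 averaged 191 and 206 FPKM. Rps15a, which is no such duplicate, averaged 185 FPKM in vivo and 194 FPKM in vitro, below Rpl22l1 in both tables. The others were near 0. Rpl39l, a testis-enriched paralogue of Rpl39, averaged 0.565 FPKM in vivo and 0.567 FPKM in vitro and was listed at 0 in 3 in vitro libraries. Rpl3l, the muscle paralogue of Rpl3, averaged 0.0275 and 0.0291 FPKM. Rpl10l, a testis gene, averaged 0.03 FPKM in vivo and was listed at 0 in all 8 in vitro libraries, and Rpl32l averaged 0.142 FPKM in vivo. These 4 did not reach the mean of 1 FPKM and were not tested, which left 48 large and 32 small subunit genes in each table.

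In vivo the ribosomal protein genes were close to level between the genotypes. Of 80 genes tested, 0 were called by limma at an adjusted p under 0.05, and 1 had an unadjusted p under 0.05; over all 10415 genes 39 were called (0.374%) and 1350 had an unadjusted p under 0.05. The median log2 fold change, cKO over WT, was 0.01 for the large and 0.03 for the small subunit, beside -0.02 over all genes. The groups did not overlap with cKO higher for 12 of 80 genes (15%), against 21.5% of all genes. They did not overlap with cKO lower for 6 (7.5%), against 25.8% of all genes.

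The smallest unadjusted p in vivo was that of Rpl13a. This large subunit protein is also known, in human myeloid cells, as part of a complex that silences translation after release from the ribosome. It had 2963 and 2805 FPKM in cKO and 2387 and 2629 FPKM in WT Treg. Both cKO libraries lay above both WT libraries, but the log2 fold change of 0.20 (SE 0.08) had an adjusted p of 0.377 in limma. Rps16 (0.13, SE 0.08) and Rps19 (0.13, SE 0.08) followed on that side, and Rpl31 (-0.13, SE 0.09), Rplp1 (-0.07, SE 0.07) and Rps27l (-0.12, SE 0.13) on the other. None of them passed the test.

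The genotypes overlapped in vivo for 5 other genes known for traits besides building the ribosome. Rpl5 and Rpl11 bind 5S rRNA and, when free, the p53 regulator Mdm2. Rpl5 had 966 and 937 FPKM in cKO and 956 and 934 FPKM in WT Treg. Rpl11 had 1475 and 1320 FPKM in cKO and 1329 and 1471 FPKM in WT Treg. Rps6, the substrate of the S6 kinases downstream of mTOR, had 1502 and 1367 FPKM in cKO and 1396 and 1410 FPKM in WT Treg. Rps27a, made as a fusion with ubiquitin, had 1049 and 1075 FPKM in cKO and 1048 and 1060 FPKM in WT Treg, and Rpl38, known in mice for translation of Hox mRNAs, had 1105 and 1048 FPKM in cKO and 978 and 1051 FPKM in WT Treg.

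In stimulated Treg no ribosomal protein gene was called between the genotypes either. By limma 0 of 80 passed and 3 had an unadjusted p under 0.05, where 2 of 10710 genes were called (0.0187%) and 1508 had an unadjusted p under 0.05. The median log2 fold change, cKO over WT, was 0.09 for the large and 0.09 for the small subunit, beside -0.05 over all genes. Under quantile normalization these medians were 0.02 and -0.04. They were 0.23 and 0.22 without the cKO stimulated replicate 1 library, and -0.0235 and -0.0223 without the cKO stimulated replicate 2 library. The groups did not overlap with cKO higher for 23 of 80 genes (28.75%), against 18.5% of all genes, and with cKO lower for 5 (6.25%), against 29.8%. These 23 comprised 17 of 48 large and 6 of 32 small subunit genes.

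Rpl3, which lines the peptidyl transferase centre, had the smallest unadjusted p there. It had 1535 and 1599 FPKM in cKO and 897 and 1106 FPKM in WT stimulated Treg, a log2 fold change of 0.65 (SE 0.20) with an adjusted p of 0.228 in limma. Rpsa, a small subunit protein also known as the laminin receptor precursor, had 1733 and 1857 FPKM in cKO and 1257 and 1341 FPKM in WT stimulated Treg (log2 fold change 0.47, SE 0.18, adjusted p 0.297). For both genes the cKO libraries lay above the WT libraries. Rps27l had 40.2 and 36.9 FPKM in cKO and 46.2 and 75.05 FPKM in WT stimulated Treg (log2 fold change -0.60, SE 0.22, adjusted p 0.281). Rpl10a (0.37, SE 0.17), Rpl31 (-0.44, SE 0.22) and Rpl9 (-0.22, SE 0.19) followed and did not pass. Without the WT stimulated replicate 1 library the large and small subunit medians were 0.08 and 0.07. That fit leaves 1 WT stimulated library, in which Rps18 and Rps2 had 52.98 and 107 FPKM, against 1485 and 1271 FPKM in replicate 1.

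In unstimulated Treg the medians, cKO over WT, were -0.04 for the large and -0.03 for the small subunit, beside 0.02 over all genes. By limma 0 of 80 genes were called and 3 had an unadjusted p under 0.05, where 8 of 10710 genes were called (0.0747%) and 703 had an unadjusted p under 0.05. The groups did not overlap with cKO higher for 3 genes (3.75%, against 17.8% of all genes) and with cKO lower for 3 (3.75%, against 16.6%). The 3 with cKO higher were Rpl26, Rps18 and Rps2, which are described with their copies below. On the other side Rpl15 (-0.30, SE 0.15), Rpl34 (-0.52, SE 0.26) and Rpl36a (-0.36, SE 0.20) had the smallest p and did not pass. In the mean of the genotype effect over both in vitro conditions 0 of 80 genes were called and 4 had an unadjusted p under 0.05, where 116 genes were called (1.08%) and 1738 had one. The medians were 0.01 for the large and -0.01 for the small subunit. Besides Rpl26 and Rps18, Rpl3 (0.39, SE 0.14) led upward, and Rpl15 (-0.22, SE 0.10), Rpl31 (-0.31, SE 0.15) and Rps27l (-0.28, SE 0.15) led downward.

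**Figure D3:**
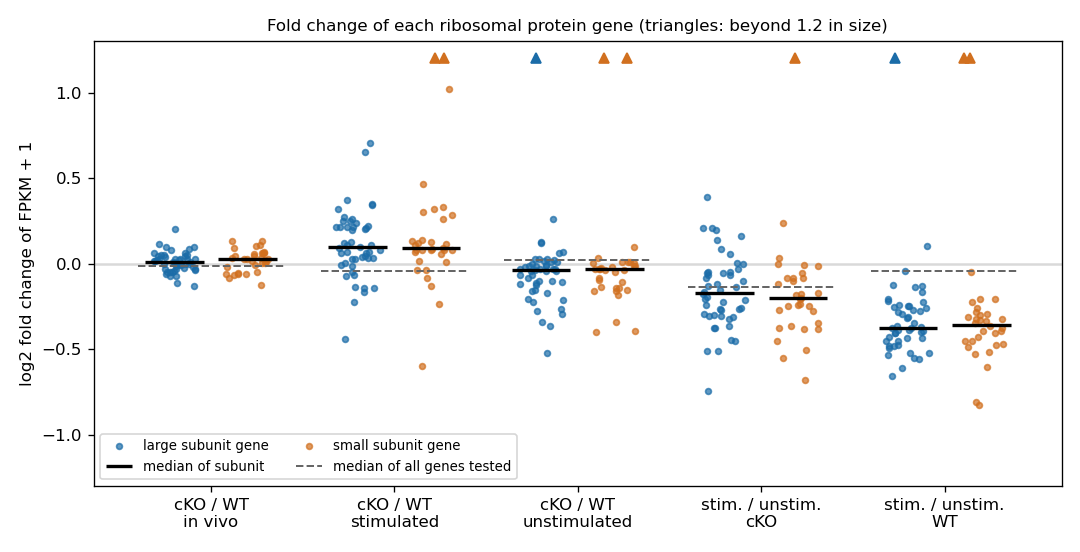
Log2 fold change of each of the 80 ribosomal protein genes on the log2(FPKM + 1) scale (y axis) in 5 comparisons (x axis), by subunit, with the median of each subunit as a bar and of all genes tested as a dashed line; triangles mark genes beyond 1.2 in size. The genotype medians lie between -0.04 and 0.09, and the subunit medians are -0.37 and -0.36 for stimulation in WT Treg.

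After stimulation most ribosomal protein genes had FPKM values below those of unstimulated cells, and 2 passed the test. In the mean of both genotypes 72 of 80 genes had a log2 fold change, stimulated over unstimulated, below 0. Of the 80, 67 lay below 0 after rescaling to a common sum and 57 under quantile normalization. As deposited, the medians were -0.28 for the large and -0.29 for the small subunit, beside -0.10 over all genes. By limma 2 genes were called lower and 0 higher. Among all 10710 genes 1330 were called (12.4%), of which 750 were lower (7.0%) and 580 higher (5.42%). At an unadjusted p under 0.05 stood 34 of the 80 and 3287 of the 10710 genes.

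The genes called were Rpl31 and Rpl21, large subunit proteins; Rpl31 lies at the exit of the peptide tunnel. Rpl31 (chromosome 1) had 196 and 224 FPKM in cKO stimulated against 297 and 416 FPKM in cKO unstimulated Treg, and 307 and 264 FPKM in WT stimulated against 463 and 340 FPKM in WT unstimulated Treg. In each genotype both stimulated libraries lay below both unstimulated ones, and the mean log2 fold change was -0.61 (SE 0.15, adjusted p 0.0398). Rpl21 (chromosome 5) had 303 and 367 FPKM in cKO stimulated against 393 and 470 FPKM in cKO unstimulated Treg, and 340 and 361 FPKM in WT stimulated against 540 and 468 FPKM in WT unstimulated Treg. Again neither genotype overlapped, and the mean log2 fold change was -0.44 (SE 0.12, adjusted p 0.0460). Rpl15 missed the threshold (-0.38, SE 0.10, adjusted p 0.0538).

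Both calls depended on the fit. With a pseudocount of 0.1, 2 of the 80 genes were called lower, where 1220 of 10710 genes were called. At a mean of at least 5 FPKM it was 3 lower, where 1436 of 7825 genes were called. Quantile normalization gave 1 higher and 1 lower, where 1437 of 10710 genes were called. Under rescaling to a common sum, median-of-ratios scaling, no filter on low values, eBayes without a trend and the replicate number as a block, 0 ribosomal protein genes were called, with log2 fold changes of -0.49 to -0.61 for Rpl31 and -0.32 to -0.44 for Rpl21. Leaving out a single library leaves 1 in its group, so only effect sizes are given for those fits. The medians in the mean of both genotypes then ranged from -0.39 to -0.18 for the large and from -0.39 to -0.21 for the small subunit. Over all 21 alternative fits the log2 fold change ranged from -0.73 to -0.49 for Rpl31 and from -0.52 to -0.32 for Rpl21. Both genes have many near-identical copies in the genome, 12 for Rpl31 and 57 for Rpl21.

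By genotype, the medians for stimulated over unstimulated were -0.37 for the large and -0.36 for the small subunit in WT Treg, beside -0.04 over all genes. In cKO Treg they were -0.17 and -0.20, beside -0.14 over all genes. The groups did not overlap with stimulated lower for 54 of 80 genes in WT Treg (67.5%), 32 of 48 large and 22 of 32 small subunit genes, against 22.9% of all genes. In cKO Treg this held for 29 of 80 (36.25%), against 44.1% of all genes. Stimulated was higher without overlap for 1 gene in WT (1.25%, against 18.8%) and 7 in cKO Treg (8.75%, against 20.7%). The 2 comparisons share no library.

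Single genes did not pass within either genotype. In WT Treg limma called 0 of 80 and 17 had an unadjusted p under 0.05, where 260 genes were called (2.43%) and 2002 had one. In cKO Treg 0 of 80 were called and 5 had an unadjusted p under 0.05, where 490 genes were called (4.58%) and 2296 had one. In WT Treg the smallest p among lower genes were those of Rpl36a (-0.66, SE 0.20, adjusted p 0.146), Rpl21 (-0.52, SE 0.16) and Rpl15 (-0.45, SE 0.15). Rpl26 was the leading higher one (4.47, SE 0.95, adjusted p 0.0561), followed by Rps18 and Rps2. In cKO Treg they were Rpl31 (-0.74, SE 0.22, adjusted p 0.0980), Rps27l (-0.68, SE 0.22) and Rpl22l1 (-0.51, SE 0.19), and on the higher side Rpl3 (0.39, SE 0.20), Rpl7l1 (0.21, SE 0.15) and Rpsa (0.24, SE 0.18).

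The difference between the genotypes in this response was tested as an interaction. Its median, response in cKO minus response in WT, was 0.16 for the large and 0.16 for the small subunit, beside -0.08 over all genes. By limma 0 of 80 ribosomal protein genes and 0 of 10710 genes (0.0%) were called, and 1 of the 80 and 380 of the 10710 had p under 0.05 before adjustment. The medians moved with single libraries. Without the WT unstimulated replicate 1 library the WT medians were -0.16 and -0.18, and without the WT unstimulated replicate 2 library they were -0.53 and -0.54. For the large subunit in cKO Treg the median was -0.31 without the cKO unstimulated replicate 1 and -0.28 without the cKO stimulated replicate 2 library, and -0.0179 without the cKO unstimulated replicate 2 and -0.0444 without the cKO stimulated replicate 1 library. The small subunit median ranged from -0.34 to -0.0692 over the same 4 fits.

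Scaling set part of these levels. Rescaling to a common sum raised the median of all genes for stimulated over unstimulated by 0.11 on the log2 scale in cKO Treg and by 0.11 in WT Treg. Relative to the median of all genes, the large and small subunit medians were -0.03 and -0.06 in cKO Treg as deposited and -0.01 and -0.05 after this rescaling. In WT Treg they were -0.33 and -0.31 as deposited and -0.32 and -0.30 after it. Quantile normalization, which gives all libraries the same distribution, left -0.09 and -0.08 in WT Treg.

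Members of other groups linked to ribosomal protein mRNAs were set beside them. Of 18 other genes with TOP mRNAs, such as Eef1a1, Eef2 and Tpt1, 1 was called higher and 0 lower in the mean stimulation effect. Among all genes 5.42% were called higher and 7.0% lower there. The 1 gene of the 18 was Vim, which encodes the intermediate filament vimentin (1.63, SE 0.19, adjusted p 0.00247). The median of the 18 was -0.03. In stimulated Treg 0 of the 18 were called between the genotypes, where 2 of 10710 genes were called (0.0187%). Eef2, the translocase of elongation, had 2356 and 2575 FPKM in cKO and 1693 and 1904 FPKM in WT stimulated Treg. Such non-overlap with cKO higher held for 18.5% of all genes there. Eef2 had 2209 and 1957 FPKM in cKO and 2234 and 1814 FPKM in WT unstimulated Treg, where the genotypes overlapped.

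Some regulators of these mRNAs changed with stimulation. Of 16 tested regulators in the mTOR, LARP1 and Myc list, 3 were called higher and 2 lower in the mean stimulation effect. Among all genes 5.42% were called higher and 7.0% lower there. Larp1 had 90.5 and 97.9 FPKM in cKO stimulated against 35.7 and 32.3 FPKM in cKO unstimulated Treg, and 69.5 and 78.4 FPKM in WT stimulated against 27.4 and 32.4 FPKM in WT unstimulated Treg. It rose in cKO (log2 fold change 1.44, SE 0.15, adjusted p 0.00422) and in WT Treg (1.28, SE 0.15, adjusted p 0.00730). Myc rose as well, by 1.57 (SE 0.30, adjusted p 0.0340) in cKO and 2.03 (SE 0.30, adjusted p 0.0167) in WT Treg. Larp4 was the other gene called higher (1.07, SE 0.22, adjusted p 0.0189). Mxd4, a repressor that shares the partner Max with Myc, fell (-1.03, SE 0.11, adjusted p 0.00164), as did Maf1, a repressor of RNA polymerase III (-0.63, SE 0.12, adjusted p 0.0165). No gene of this list was called between the genotypes.

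Other lists held few calls in the mean stimulation effect, in which 5.42% of all genes were called higher and 7.0% lower. Of 78 mitochondrial ribosomal protein genes 0 were called higher and 3 lower, Mrpl14 (-1.02, SE 0.15), Mrps6 (-0.83, SE 0.18) and Mrps23 (-0.58, SE 0.13), with a median of -0.23. Of 6 chaperones dedicated to ribosomal proteins 1 was called higher, Grwd1, which escorts Rpl3 (0.69, SE 0.16, adjusted p 0.0318), with a median of 0.26. Of 10 tested p53 targets 1 was called higher, Sesn2 (0.71, SE 0.12), and 1 lower, Bax (-0.83, SE 0.17), with a median of -0.000466. Of 4 tested ribosomal protein pseudogenes 0 were called. Among marker lists, 0 B cell and 0 myeloid markers, 1 of 9 tested erythroid markers (higher), 1 of 6 tested CD8 T and NK markers (higher) and 3 of 8 T cell and Treg markers were called, Il2ra and Foxp3 higher and Cd3e lower. 

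Near-identical copies bear on the FPKM of single genes. Coding sequences of 83 of the genes were compared with GENCODE transcripts of GRCm38 at 95% identity or more over at least 80% of their length. At least 1 copy was found for 75 of them, and 558 pairs of gene and copy in all. Of these pairs 7 had both members in the in vivo table and 16 in the in vitro table. Of the 80 genes tested, 0 varied more than 3-fold over the 4 in vivo libraries, and the median gene varied 1.10-fold. In vitro the median of the 80 varied 1.60-fold over the 8 libraries, and 4 varied more than 3-fold, namely Rpl26, Rps18, Rps2 and Rps27.

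Rps27, a zinc-binding protein of the small subunit, and its retrogene Rps27rt have the same coding sequence. Rps27 lies at chr3:90212522-90213651 on the minus strand and Rps27rt at chr9:114982366-114982739 on the minus strand (GRCm38). The 255 bases differ at 0 positions. The sequence, shown because no read within it can be assigned to either gene, is given once, 5′ to 3′ on the coding strand, with no part in capitals.
Rps27 and Rps27rt: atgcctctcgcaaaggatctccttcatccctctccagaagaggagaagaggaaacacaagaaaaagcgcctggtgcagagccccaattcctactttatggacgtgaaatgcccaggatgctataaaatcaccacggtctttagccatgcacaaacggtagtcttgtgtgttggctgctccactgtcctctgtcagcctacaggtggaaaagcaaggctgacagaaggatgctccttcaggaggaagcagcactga

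The FPKM of this pair moved in opposite directions between replicates. Rps27 had 1333 and 1790 FPKM in cKO and 26.4 and 1626 FPKM in WT stimulated Treg, and 1657 and 30.4 FPKM in cKO and 36.8 and 2204 FPKM in WT unstimulated Treg. In 3 libraries it was at most 36.8 FPKM, and in these 3 Rps27rt was high, at 1963 (WT stimulated replicate 1), 2965 (cKO unstimulated replicate 2) and 2760 FPKM (WT unstimulated replicate 1). In the other 5 libraries Rps27rt had 8.1 to 82 FPKM. The sum of both ranged from 1385 to 2995 FPKM, 2.16-fold, where Rps27 alone ranged 83.6-fold. In vivo Rps27 was even, at 3067 and 2682 FPKM in cKO and 2745 and 3077 FPKM in WT Treg.

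Rpl26, a large subunit protein known to bind p53 mRNA in human cells, has a pseudogene copy, Gm15772. Rpl26 lies at chr11:68901583-68906989 and Gm15772 at chr5:3236431-3236868, both on the plus strand (GRCm38). They share 438 bases with 2 mismatches (99.5% identity). Bases 169 to 288 of the Rpl26 coding sequence, counted from 1 at the start codon, hold both mismatches, which are in capitals.
Rpl26: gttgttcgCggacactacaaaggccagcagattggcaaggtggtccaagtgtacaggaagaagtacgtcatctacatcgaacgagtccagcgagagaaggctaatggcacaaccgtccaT
Gm15772: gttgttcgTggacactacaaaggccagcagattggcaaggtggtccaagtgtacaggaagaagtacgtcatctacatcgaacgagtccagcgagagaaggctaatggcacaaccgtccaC

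Rpl26 had 537 and 644 FPKM in cKO and 472 and 525 FPKM in WT stimulated Treg, and 642 and 679 FPKM in cKO and 5.18 and 80.9 FPKM in WT unstimulated Treg. Gm15772 had 615 and 719 FPKM in cKO and 524 and 604 FPKM in WT stimulated Treg, and 712 and 755 FPKM in cKO and 1635 and 1111 FPKM in WT unstimulated Treg. Where Rpl26 was low the copy was high, and the sum ranged 1.65-fold (996 to 1640 FPKM) where Rpl26 alone ranged 131-fold. For unstimulated Treg the log2 fold change of Rpl26, cKO over WT, was 4.88 (SE 0.95, adjusted p 0.177), and with the copies merged it was -0.01. With the copies merged the log2 fold change for stimulation in WT Treg was -0.40, where Rpl26 alone gave 4.47.

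Rps18 and Rps2, proteins of the small subunit on chromosome 17, showed a split of another kind. Rps18 had 882 and 1087 FPKM in cKO and 1485 and 52.98 FPKM in WT stimulated Treg, and 923 and 1121 FPKM in cKO and 82.6 and 55.1 FPKM in WT unstimulated Treg. Rps2 had 737 and 764 FPKM in cKO and 1271 and 107 FPKM in WT stimulated Treg, and 689 and 781 FPKM in cKO and 147 and 119 FPKM in WT unstimulated Treg. The same 3 WT libraries were low for both genes. For unstimulated Treg their log2 fold changes, cKO over WT, were 3.89 (SE 1.23, adjusted p 0.534) and 2.46 (SE 0.91, adjusted p 0.660). GENCODE holds 5 near-identical copies of Rps18 and 18 of Rps2, and the in vitro table lists none of them, so no sum could be formed. In vivo Rps18 had 2462 and 2285 FPKM in cKO and 2278 and 2375 FPKM in WT Treg, and Rps2 had 2135 and 2120 FPKM in cKO and 2136 and 2150 FPKM in WT Treg.

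**Figure D4:**
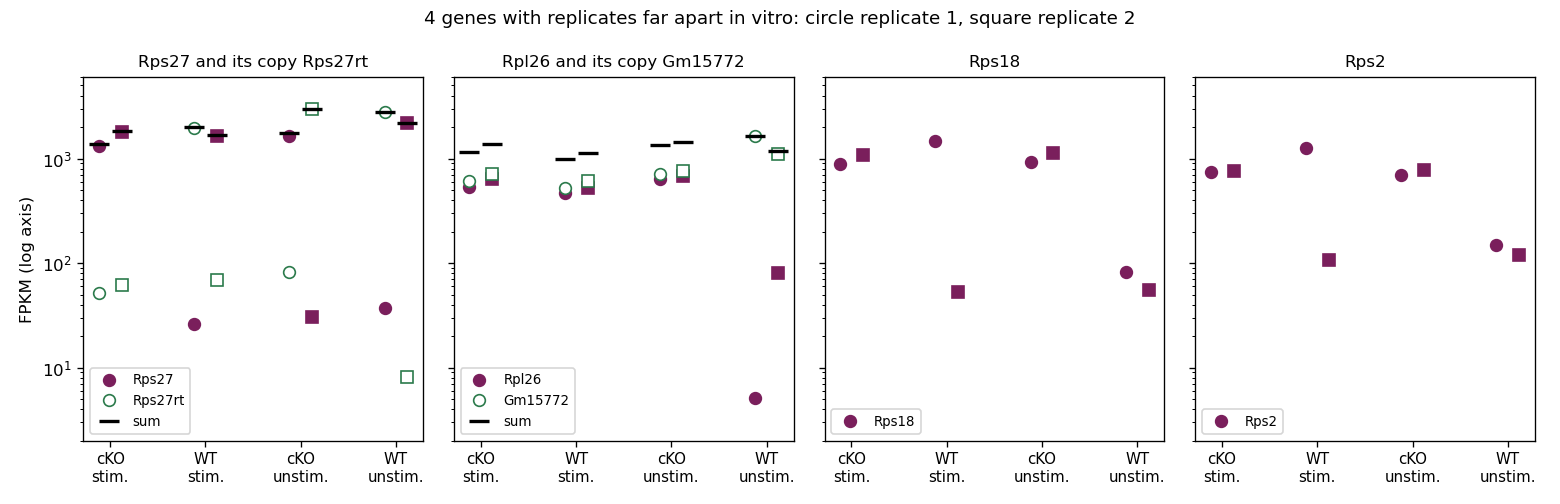
FPKM (y axis, log) of Rps27, Rpl26, Rps18 and Rps2 in the 8 in vitro libraries by group (x axis), with the copies Rps27rt and Gm15772 as open symbols and the sum of gene and copy as a dash. The sums stay between 1385 and 2995 FPKM for Rps27 and between 996 and 1640 FPKM for Rpl26, while Rps18 and Rps2 are low in the same 3 WT libraries.

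Levels of other copies differed between the tables or between libraries. Rpl31-ps12, a copy of Rpl31, had 622 to 700 FPKM in vivo, above Rpl31 itself at 381 to 446 FPKM, but 0.101 to 0.705 FPKM in vitro, where Rpl31 was called lower after stimulation. How reads were divided between them is not given. Gm12191, a copy of Rpl30, had 31.7 and 37.6 FPKM in cKO and 1.3 and 83.6 FPKM in WT stimulated Treg, and 21.8 and 71.2 FPKM in cKO and 41.1 and 273 FPKM in WT unstimulated Treg. Rpl30 itself varied 1.80-fold over these 8 libraries and the sum of both 1.78-fold. Rpl34-ps1, a copy of Rpl34, had 2.78 to 5.72 FPKM in vivo. In vitro it had 413 and 331 FPKM in cKO and 466 and 284 FPKM in WT stimulated Treg, and 674 and 542 FPKM in cKO and 465 and 238 FPKM in WT unstimulated Treg. Rpl34 itself had 519 and 837 FPKM in cKO and 993 and 903 FPKM in WT unstimulated Treg, and the sum of gene and copy varied 1.45-fold over the 8 libraries, against 1.91-fold for Rpl34.

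Coding length went with the differences between libraries. Among the 75 genes at 100 FPKM or more in every in vitro library, the Spearman correlation between coding length and the log2 difference of replicate 2 and replicate 1 was -0.75 in cKO unstimulated and -0.08 in WT unstimulated Treg. It was -0.49 in cKO and 0.44 in WT stimulated Treg. These are descriptions, since all points share the same libraries. The short genes Rps28, Rps29, Rps21 and Rpl38 had 624, 563, 714 and 744 FPKM in the cKO unstimulated replicate 2 library and 314, 255, 387 and 406 FPKM in replicate 1.

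The response to stimulation also went with coding length. The Spearman correlation of length and log2 fold change, stimulated over unstimulated, was 0.29 in cKO and 0.63 in WT Treg. In WT Treg the 8 genes of at most 300 coding bases had a median of -0.53, and the 23 genes of at least 600 bases a median of -0.25. In cKO Treg these medians were -0.14 and -0.09. For the genotype effect, cKO over WT, the correlation with length was 0.41 in unstimulated and 0.09 in stimulated Treg. In vivo the correlation of length and the genotype effect was 0.05 over 78 genes. Between the 2 in vivo libraries of a group, the second over the first, it was 0.33 in cKO and -0.48 in WT Treg. Whether fragment size or RNA quality took part was not tested.

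**Figure D5:**
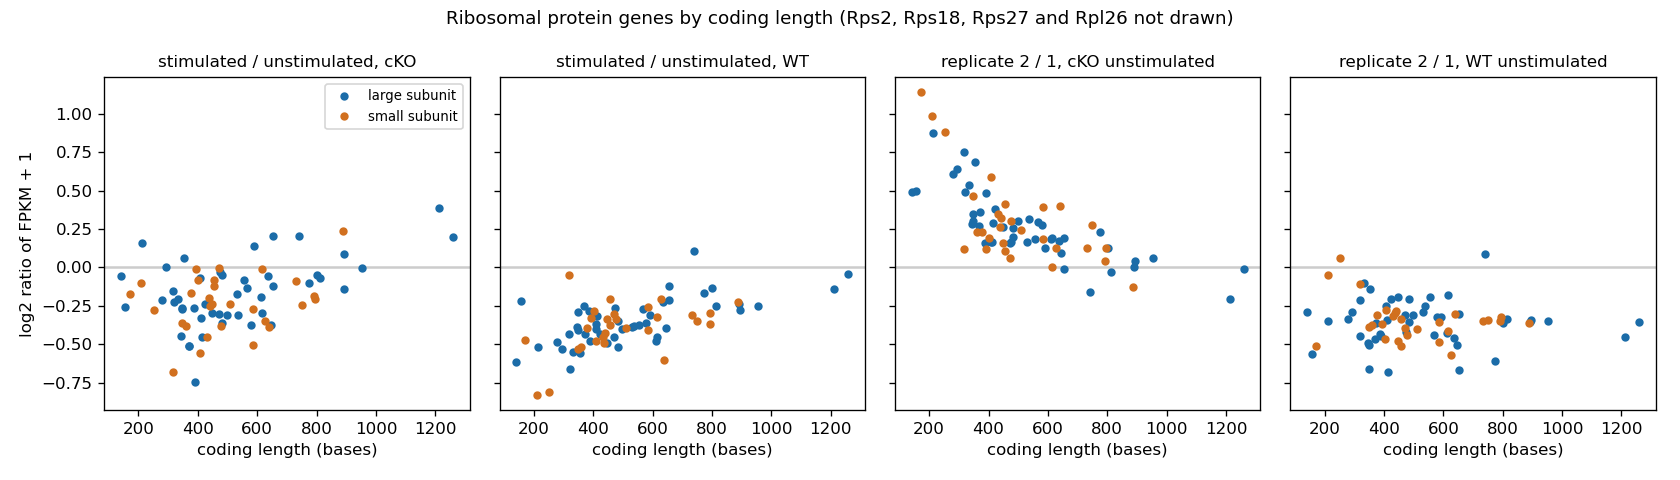
Log2 ratio on the log2(FPKM + 1) scale (y axis) against coding length in bases (x axis) for the ribosomal protein genes tested in vitro, with the response to stimulation in cKO and WT Treg in the left panels and replicate 2 over replicate 1 in unstimulated cKO and WT Treg in the right panels. Rps2, Rps18, Rps27 and Rpl26 are not drawn. Short genes lie lowest in the WT response and highest in the cKO replicate ratio. The Spearman correlation for that ratio is -0.75 over the 75 genes at 100 FPKM or more in every in vitro library, Rps2 included.

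Promoters of the genes hold the TOP tract more often than those of other genes. RefSeq promoters (GRCm38.p6, 250 bases before to 50 after the annotated start) matched 64 of the genes. The annotated start was a C followed by at least 4 pyrimidines in 14 of 64 (21.9%), against 261 of 8882 other genes tested (2.94%). Such a tract began within 5 bases of the start in 30 of 64 (46.9%), 18 of 40 large and 12 of 24 small subunit genes, against 23.8% of the other genes tested. The ETS motif CCGGAAG, searched on both strands, was in 26 of 64 (40.6%) and 21.7% of the other genes tested. The YY1 motif AAGATGGC was in 9.38% and 5.71%, TATAAA in 12.5% and 8.52%, and the E box CACGTG in 9.38% and 12%. Over all promoters of the table the shares were 21.2% for the tract within 5 bases, 9.93% for CCGGAAG, 3.19% for AAGATGGC, 15.7% for TATAAA and 8.09% for CACGTG.

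The starts of genes named above are shown with 30 bases before and 15 from the annotated start on. They show how the tract sits in genes whose FPKM split between libraries, in a gene called lower after stimulation and in a paralogue. Capitals mark the tract.
Rpl31, chr1:39367821-39367865, plus strand: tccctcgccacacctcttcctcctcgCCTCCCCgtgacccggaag
Rps27, chr3:90213634-90213678, minus strand: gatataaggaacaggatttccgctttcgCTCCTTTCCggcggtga
Rps18, chr17:33955651-33955695, minus strand: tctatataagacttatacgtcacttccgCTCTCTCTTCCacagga
Rpl22l1, chr3:28805478-28805522, plus strand: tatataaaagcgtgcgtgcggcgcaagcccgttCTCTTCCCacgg
Rpl26, chr11:68901536-68901580, plus strand: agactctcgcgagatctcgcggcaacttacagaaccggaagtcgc

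The tract was 7 bases long in Rpl31, 9 in Rps27, 11 in Rps18 and 8 in Rpl22l1. No tract of this kind began within 5 bases of the annotated start of Rpl26. An annotated start can differ from the start used in these cells, which was not measured here.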

How the data were processed

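Polyadenylated RNA of mouse Treg was sequenced in 12 samples, 6 groups of 2 named by their titles. FPKM were deposited by the authors in 2 tables, with a column per library, for the 4 in vivo and the 8 in vitro samples; 4 further per-sample columns of no sample listed here were not used. HISAT2 2.2.1, StringTie 2.1.1, mm10 and hg19 are named, per the submitters' processing notes, with no role. In vivo columns give the genotype and no replicate number. Read depth is unknown, so no counting interval was computed.

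The tables were fitted apart with limma 3.58.1 (R 4.3.3) on log2(FPKM + 1), using two-sided eBayes tests with a trend, over genes averaging at least 1 FPKM. Calls were made where the p, adjusted after Benjamini and Hochberg across every gene of the fit, was under 0.05, and this is the adjusted p printed throughout. The pseudocount understates changes of low genes. In vitro groups were fitted in 1 model. The limma step was tested on simulated data. Entrez numbers were matched to RefSeq symbols (16196 of 16232). Copies were found with BLAST 2.17.0.

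Named are all genes called, otherwise the 3 with the smallest p in each direction, the 5 highest and lowest, genes listed at 0, paralogues, genes with known other roles, and up to 4 called genes per list. The genes, lists and tests were chosen with earlier results of these data known.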

Additional observations from a re-analysis of the deposited data

Results flagged for a closer look

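Rpl19 and Rps2 were flagged because both libraries of a group lay above both of its counterpart in one setting and below them in another. Non-overlap was common among all genes. For stimulated over unstimulated it held for 20.7% (higher, cKO) and 22.9% (lower, WT). For cKO over WT it held for 25.8% (lower, in vivo) and 17.8% (higher, unstimulated). How many of all genes switch direction in this way was not counted. Rpl19, a large subunit protein, had 1623 and 1785 FPKM in cKO stimulated against 1484 and 1616 FPKM in cKO unstimulated Treg, and 1258 and 1431 FPKM in WT stimulated against 1861 and 1487 FPKM in WT unstimulated Treg. Its log2 fold change, stimulated over unstimulated, was 0.14 in cKO and -0.31 in WT Treg, a difference of 0.45 that limma's interaction did not call. Rps2 had a log2 fold change, cKO over WT, of -0.01 in vivo and 2.46 in unstimulated Treg. The difference of -2.47 between separately normalised tables was not tested. In vivo the Rps2 values were nearly equal, 2135 and 2120 FPKM in cKO and 2136 and 2150 FPKM in WT Treg. The 2.46 goes with the low WT values described above, 147 and 119 FPKM in unstimulated Treg. With 2 libraries per group no single library could be tested for standing apart.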

How the results depend on the processing

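The 16 medians kept within 1 SD of replicates (0.0329 to 0.188 on the log2 scale) under 312 of 328 alternatives. This count says little about how steady they are. Many alternatives could not move a median, since they changed only the test or a library outside the comparison. The in vitro SD (0.188 large, 0.174 small subunit) was larger than every in vitro genotype median, so a change of sign could still count as kept. Exceptions for stimulated over unstimulated were the quantile normalization medians in WT Treg (-0.0923 large, -0.0836 small subunit) and in the mean of genotypes (-0.0747 small). With both WT replicate 2 libraries left out, chosen after seeing the data, the small subunit median in WT was -0.57, the unstimulated genotype medians were -0.24 large and -0.23 small, and the interaction medians 0.38 and 0.36. The cause was not tested.

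The count of genes called was more changeable. With both WT replicate 2 libraries left out it was 3 for the mean genotype effect in vitro, 3 unstimulated, 3 in the interaction, 2 for stimulation in cKO, 3 in WT and 9 in the mean of genotypes; with both cKO replicate 1 libraries left out the last was 0. With only the 4 samples compared it was 2 for genotype in unstimulated Treg (Rps2 and Rps18) and 2 for stimulation in cKO (Rpl31 and Rps27l). Without a filter the count was 1 of 83 for stimulation in cKO, where 110 of 24421 genes were called. This was Rpl3l, near the floor at 0.104 and 0.103 FPKM in cKO stimulated and 0 FPKM in both cKO unstimulated libraries. For stimulation in WT, Rpl26 made the count 1 at a mean of at least 5 FPKM, under quantile normalization and with the replicate block. Those fits called 326 of 7825, 300 of 10710 and 288 of 10710 genes. In the mean of genotypes the count was 0 under common sum, median-of-ratios scaling, no filter, robust eBayes without trend and the replicate block, and 1 with haemoglobin removed. Over all genes these fits called from 407 (no filter) to 1412 (replicate block). The labels do not say that a replicate number marks a shared animal or day, and the block changed no other count or median. Merging copies or leaving out Rps2, Rps18, Rps27 and Rpl26, both added later, moved no count by over 1.5 times and no median by over 1 SD.

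Leaving out single libraries gave, in genes called, 0 to 2 for the mean genotype effect, 0 to 3 stimulated, 0 to 2 unstimulated, 0 to 2 in the interaction, 0 to 2 for stimulation in WT, 0 to 1 in cKO and 0 to 11 in the mean. The medians outside 1 SD ranged, for genotype in vivo, from -0.00479 to 0.0753 (small); for genotype in unstimulated Treg, from -0.24 to 0.14 (large) and -0.23 to 0.13 (small); for the interaction, from 0.0374 to 0.36 (large) and -0.0300 to 0.34 (small); and for stimulation in WT, from -0.53 to -0.16 (large) and -0.54 to -0.18 (small). The log2 ratio of shares ranged from -0.0847 to 0.25 for cKO over WT stimulated and from -0.21 to 0.14 for stimulated over unstimulated in cKO. Depth is unknown, so what it limits cannot be given.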
